A study of Mus musculus with 16 samples.

Results

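Pairs of transcripts that run over the same DNA in opposite directions were examined in female mouse embryonic stem (ES) cells, for the RNA level of each strand and for contact with CTCF. A pair was 2 rows of the day 0 list of transcribed regions, each at least 1000 bp long, on opposite strands of a chromosome and overlapping by at least 500 bp. The rule found 2259 pairs, made of 4338 rows (2149 on the plus and 2189 on the minus strand). These are 24% of the 18100 rows of at least 1000 bp, in a list of 40668 rows. A row is a stretch of 1 strand in which the authors merged 1 or more assembled transcripts. Rows are given by mm9 position, since the lists name no genes.

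The study set the RNAs that CTCF contacts against the DNA sites that it occupies, before and during differentiation. Day 0 cells were undifferentiated ES cells, grown attached with the cytokine LIF, and day 3 cells had been kept without LIF in suspension for 3 days. RNA contacts were mapped by CLIP-seq, in which UV light links protein to RNA in the cell and the protein is pulled down with its RNA, here with anti-FLAG M2 beads. Of 16 samples, 9 were used: 4 CLIP libraries with UV (2 per day), 3 CTCF ChIP-seq libraries (2 at day 0 and 1 at day 3) and 2 libraries of ribosomal-RNA-depleted nuclear RNA (1 per day). CLIP and RNA-seq used cells labelled CAST/Ei x 129/Sv/Jae, and ChIP used cells labelled 129S1/CastEiJ x 129S1 and a CTCF antibody. The labels do not describe the FLAG-tagged protein or say whether replicates were separate cultures, so the p-values reflect spread among these libraries alone, and that spread may be technical. Libraries made without UV and inputs of the ChIP were not analysed here, and the values therefore stand without a background from them.

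CTCF recognises a DNA motif through its zinc fingers, sits at insulators and at the bases of chromatin loops, and also binds RNA. Where both strands of a locus are transcribed, the antisense RNA or the act of transcribing it can silence its partner, as is known for imprinted genes and for X inactivation in female ES cells that differentiate. Many active promoters of mammals also give short transcripts in both directions. The RNA-seq libraries kept the strand by dUTP marking of the second cDNA strand, per the labels, and the CLIP lists hold each strand separately.

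Between 106382 and 213181 CLIP peaks were listed per library, and between 41264 and 76745 ChIP peaks, whose median width was 1964 to 2013 bp. In both assays the longest list was day 0 replicate 2. Read depth is unknown, because the lists hold peaks and FPKM rather than read counts. CLIP density is given as peak bases per kb of sequence, unscaled, so libraries are compared through ratios within a library.

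The commonest arrangement was head to head, with the 5′ ends of both rows inside the overlap. It made up 1055 pairs (46.7%). In 514 pairs the minus row lay inside the plus row, and in 463 the plus row lay inside the minus row. Only 227 pairs (10%) were tail to tail, with overlapping 3′ ends.

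Overlaps were short. They ran from 502 to 144376 bp, with a median of 1176 bp and quartiles of 1010 and 1517 bp, and together covered 4.93 Mb. At least 5 kb was reached by 127 overlaps and at least 20 kb by 34. In 1603 pairs the shorter row was under 2000 bp, and the median shorter row of 1394 bp stood against a median longer row of 28056 bp. In 602 pairs each strand held a row of 1 transcript. Most rows (4223) belonged to 1 pair, and the row in most pairs belonged to 18, so pairs are not all independent.

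**Figure D1:**
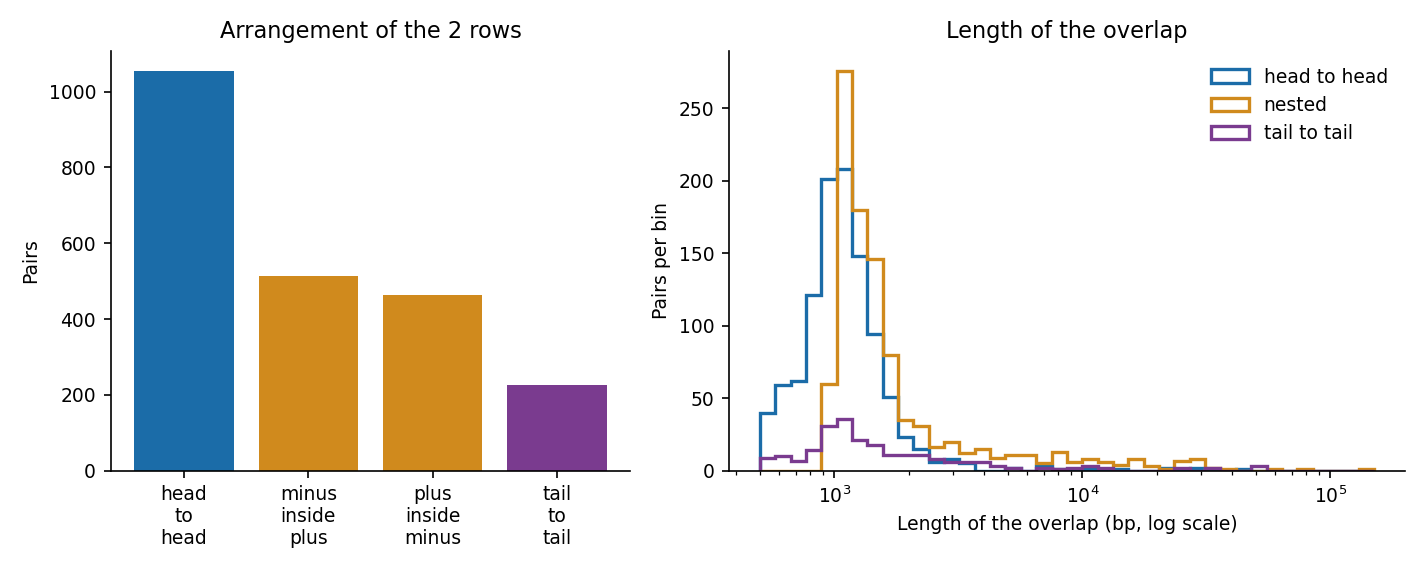
Left, number of pairs in each arrangement; right, number of pairs by length of the overlap (log scale), for head-to-head (1055), nested (514 and 463) and tail-to-tail (227) pairs. Head-to-head pairs are the most numerous and most overlaps lie near 1000 bp.

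The limits of the rule cut through a continuous range. The 3 shortest overlaps kept had 502, 504 and 506 bp, and the 3 longest overlaps left out between rows of full length had 492, 491 and 491 bp. The FPKM of these 3 excluded pairs ranged from 3.81 to 62.3. The 3 pairs closest to the length limit on the inside had a shorter row of 1000 bp, and the 3 closest on the outside had 999 bp.

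Pairs were found on every autosome and on X. Of the X rows of at least 1000 bp, 97 of 719 were in a pair (13.5%), the lowest share of the 20 chromosomes. The highest share was on chromosome 12, with 226 of 690 rows (32.8%), and the other chromosomes ranged from 20.8% on 15 to 27% on 10. These shares come from 1 RNA-seq library and were not tested.

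In most pairs the FPKM of the 2 strands was within 2-fold at day 0. The share for rows put together at random was not computed, so this does not show that partners were matched in level. FPKM is a level per length of transcript, scaled to the library. The median FPKM was 8.04 for plus rows and 7.98 for minus rows, and in 1289 pairs (57.1%) the strands were within 2-fold of each other. In 311 pairs they differed by over 8-fold. The 82 pairs with a row of FPKM 10000 or more stayed in these counts and in the coefficients below. Across pairs, FPKM of the strands correlated weakly (Spearman's rho = 0.255 over 2259 pairs, which share a library and in part share rows). The coefficient was 0.304 in head-to-head pairs, 0.418 in tail-to-tail pairs, and 0.163 and 0.179 in the nested arrangements. In the 602 pairs with 1 transcript on each strand it was 0.476, and 68.1% were within 2-fold. Rows of pairs had a median FPKM of 8, against 4.94 for rows in no pair. This held in each class of length, with 8.66 against 4.62 at 1 to 2 kb, 5.84 against 2.97 at 2 to 10 kb and 8.38 against 6 from 10 kb up.

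**Figure D2:**
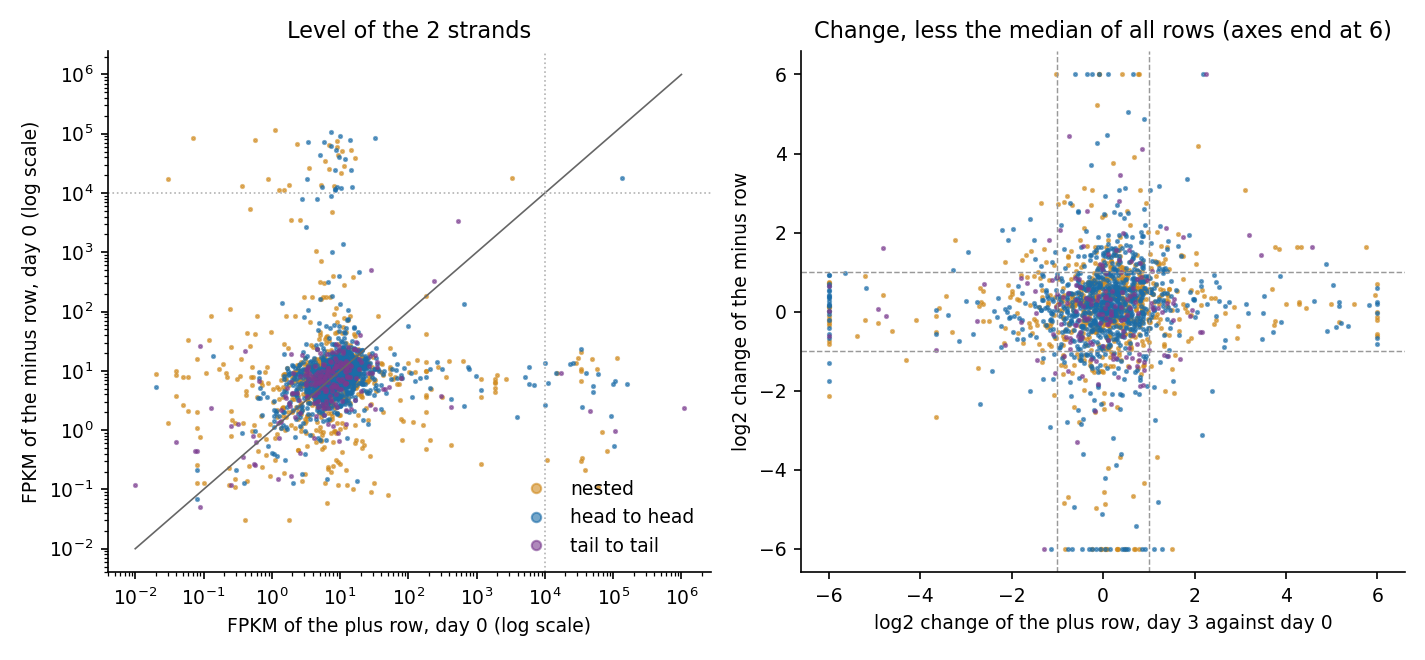
Left, FPKM of the plus and the minus row of each pair at day 0 (log scales, 1 library), with a line of equal level and dotted lines at FPKM 10000. Values from there up were not read as RNA levels of named rows, but their pairs are drawn and counted. Right, log2 change of each row from day 0 to day 3 less the median change of all rows, for the 1786 pairs with both rows listed at day 3; dashed lines mark 2-fold and values past 6 are drawn at 6.

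Among the pairs with the highest level on their weaker strand were 2 at which the rows of both strands had nearly the same ends. On chromosome 2, the plus row 98502389 to 98507490 had FPKM 533 and the minus row 98502860 to 98507492 had 3347. On chromosome 9, the plus row 3000002 to 3001528 had 649 and the minus row 3000000 to 3001526 had 133. No list of repeats was used here, so whether these stretches are repeats is not known.

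On chromosome 7, the minus row 52713315 to 52715209 (FPKM 184) lay inside the plus row 52609537 to 52879112 (FPKM 180). Its overlap had minus-strand CLIP peak bases in every library, 283 and 501 at day 0 and 499 and 517 at day 3, and no plus-strand base in any. Peaks were listed on the inner strand alone, at nearly equal FPKM of the 2 rows. The plus row pools 13 transcripts over its whole length and the minus row 2, so the plus-strand level inside the overlap is not known. On chromosome 13, the reverse arrangement had a plus row of 1 transcript, 21808281 to 21809321 (FPKM 35.9), inside the minus row 21807601 to 22133221 (FPKM 84.2). There 49 and 44 plus-strand bases at day 0 and 48 and 6 at day 3 stood against 0 minus-strand bases in all 4 libraries. The remaining pairs of this list were a tail-to-tail pair on chromosome 12 around 55820170 to 55830753 (FPKM 239 and 333) and a head-to-head pair on chromosome 12 around 11272575 to 11273419 (FPKM 100.3 and 56.7).

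CLIP peaks were rarer in rows of pairs than in rows at large. A row was called bound at a day when both libraries of that day had a peak on its strand. At day 0, 1460 of 4338 rows of pairs were bound (33.7%), against 47.2% of all rows of at least 1000 bp. At day 3, 1462 were bound (33.7%), against 45.9% of all rows. The shares differed by length. Of rows of pairs of 1 to 2 kb, 29 of 1889 were bound at day 0 (1.54%), while 270 of 1826 rows of that length in no pair were (14.8%). At day 3 the shares were 1.64% and 11.6%. Rows of 2 to 10 kb stood at 20.9% in pairs and 29.3% outside at day 0, and rows from 10 kb up at 77.3% and 69.2%. So short rows of pairs had fewer bound members than other short rows although their FPKM was higher, and long rows had more. These shares carry no test.

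**Figure D3:**
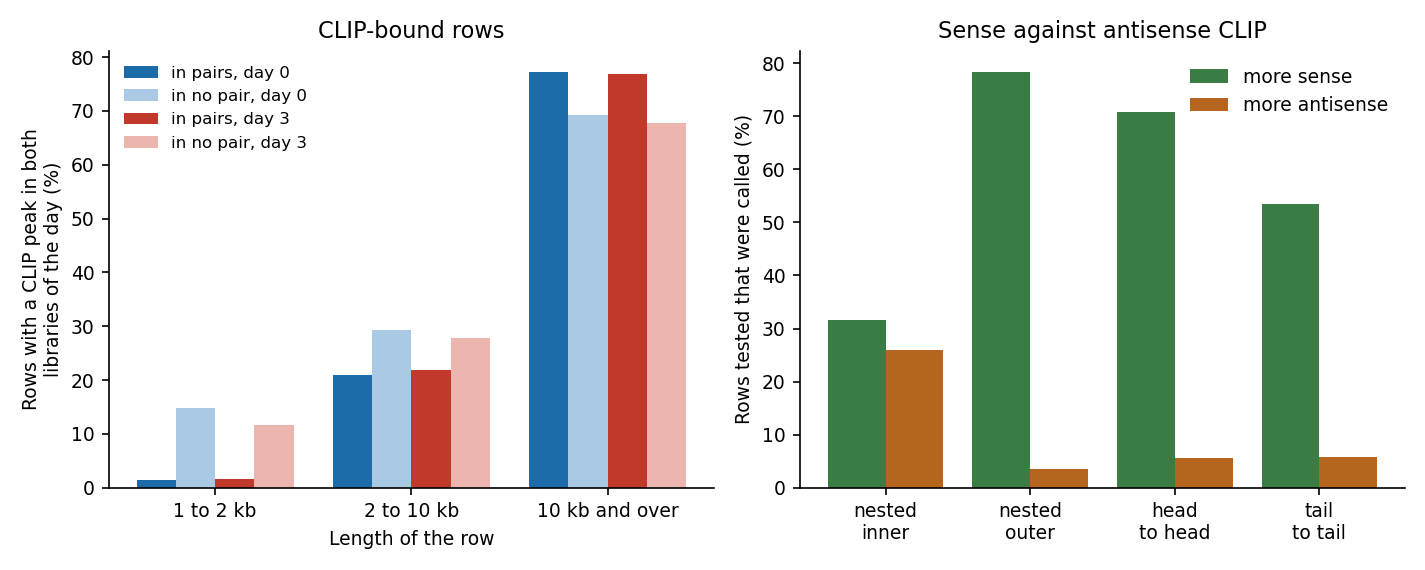
Left, percent of rows with a same-strand CLIP peak in both libraries of a day, by row length, for rows in pairs and in no pair: 1.54% against 14.8% at 1 to 2 kb and 77.3% against 69.2% from 10 kb up at day 0. Right, percent of tested rows of pairs called for more sense or more antisense CLIP by limma, by their place in the pair; inner rows of nested pairs are called for more antisense in 25.9%.

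Few overlaps were bound, and most of those were bound on 1 strand. Per library, 6.68% to 13.8% of overlaps had a plus-strand peak and 7.08% to 12.4% a minus-strand peak. With peaks this rare, few overlaps would have both even if the strands were unrelated. Whether peaks on 1 strand avoid the other was not tested. Either strand of the overlap was bound in 158 pairs at day 0 (6.99%) and 204 at day 3 (9.03%), and 96 pairs were bound on either strand at both days. At day 0 the bound strand was plus alone in 77 pairs, minus alone in 73 and both in 8. At day 3 the numbers were 93, 104 and 7. Of head-to-head overlaps 2.56% were bound at day 0 and 5.12% at day 3, and of tail-to-tail overlaps 15% and 11%. Taken library by library, 16 and 51 overlaps at day 0 and 11 and 32 at day 3 had a peak on both strands, at most 2.26% (exact Clopper-Pearson 95% interval 1.69 to 2.96, counting error only). Of the 150 overlaps bound on 1 strand at day 0, the bound strand was the one with the higher FPKM in 95 (63.3%) and the longer row in 67 (44.7%). At day 3, again by day 0 FPKM, these were 134 of 197 (68%) and 111 (56.3%).

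Of 13 overlaps bound on both strands at a day, 2 were so at both days. The first is the head-to-head pair on chromosome 17, plus row 12934240 to 13008423 and minus row 12875272 to 12962887, with 28648 bp shared. Its plus strand had 254 and 91 peak bases at day 0 and 22 and 83 at day 3, and its minus strand had 447 and 225, then 296 and 499. The minus strand was above the plus strand in every library. The plus row had FPKM 3.36, and the minus value exceeds 10000 and is not read as a level. The second is the chromosome 2 stretch with nearly the same ends named above, with 121 and 120 plus-strand bases at day 0, 104 and 118 at day 3, and minus-strand bases of 45 and 145, then 35 and 30.

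Of the 13 overlaps, 6 were nested, 3 head to head and 4 tail to tail. Those with the most CLIP on both strands include nested pairs. On chromosome 2, the plus row 33071280 to 33100080 (FPKM 1.61) lay in the minus row 32988941 to 33227146 (FPKM 7.40). Its minus strand had 279, 449, 304 and 254 peak bases in the 2 day 0 and then the 2 day 3 libraries, and its plus strand had 34, 125, 0 and 74. The longer, more abundant row thus had more peak bases in each library. On chromosome 1, the inner plus row 74552053 to 74577418 had the larger values, 194, 322, 92 and 406, against 86, 172, 0 and 55 on the minus strand of the row 74482084 to 74590860. FPKM was 397 on the plus and 14.4 on the minus strand at day 0, and 9.59 and 10.2 at day 3. The 2 day 3 libraries held the lowest and the highest of the plus-strand values, while the FPKM of that row was lower at day 3. Peak bases are unscaled, so no change of CLIP between days is read from them.

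On chromosome 10, the plus row 53316570 to 53329019 inside the minus row 53256135 to 53350245 had 183, 162, 77 and 74 plus-strand bases and 0, 67, 175 and 85 minus-strand bases. Plus exceeded minus in both day 0 libraries, and minus exceeded plus in both day 3 libraries. FPKM was 7.41 and 22.2 at day 0 and 13.4 and 23.1 at day 3. On chromosome 11, the plus row 69497831 to 69504643 inside the minus row 69496079 to 69509600 had 85, 87, 33 and 163 plus-strand bases and 0, 79, 128 and 103 minus-strand bases. In a tail-to-tail pair on chromosome 17, plus row 87362236 to 87399409 and minus row 87396596 to 87424750, the strands had 205, 50, 100 and 50 bases (plus) and 0, 108, 48 and 89 (minus). These last 3 pairs have no minus-strand peak in day 0 replicate 1, which has the shorter of the day 0 lists.

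Pooled over the rows of an arrangement, overlaps were poorer in CLIP peaks than the sequence of those rows outside them. Bases and lengths were summed before division, so this is no contrast within each row. In head-to-head pairs the median overlap was 1048 bp, the median shorter row 1416 bp and the median longer row 27013 bp. Short rows, of which few were bound, thus gave mainly inside sequence, and long rows gave most of the outside. In head-to-head pairs, sense-strand peak bases per kb inside and outside were 2.02 and 6.36 in day 0 replicate 1, and 3.72 and 10.9 in replicate 2. At day 3 they were 2.20 and 6.24 in replicate 1 and 4.88 and 9.08 in replicate 2. The inside was lower in each of the 4 libraries, and the mean log2 ratio was -1.40 ± 0.34 (SD, n = 4 libraries). Tail-to-tail pairs had a ratio of -0.46 ± 0.17 and outer rows of nested pairs one of -0.85 ± 0.23, again lower inside in each library. In rows of at least 2000 bp in no pair (11936 rows), the first 1000 bp had a ratio to the rest of 0.29 ± 0.10 and the last 1000 bp one of 1.28 ± 0.23, higher in all 4 libraries. So neither end of rows in no pair was poor in peaks, as the pooled overlaps were. No test was made, since the values describe pooled pairs.

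The size of this difference depended on which row was counted, a division added after the data were seen. For the longer row of each head-to-head pair, density in the overlap against the rest of that row had a log2 ratio of -0.79 ± 0.36 (-1.09 and -0.94 at day 0, -0.85 and -0.27 at day 3). For the shorter row it was -2.43 ± 0.37, also pooled over rows, many of which have little sequence outside the overlap. Day 3 replicate 2 had the smallest difference for both. Among longer rows of at least 10 kb the ratio was -0.90 ± 0.43 (736 rows), beside 0.11 ± 0.17 for the first 1000 bp of rows of that length in no pair (8322 rows). In tail-to-tail pairs, longer rows gave -0.56 ± 0.22 and shorter rows -0.69 ± 0.10.

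**Figure D4:**
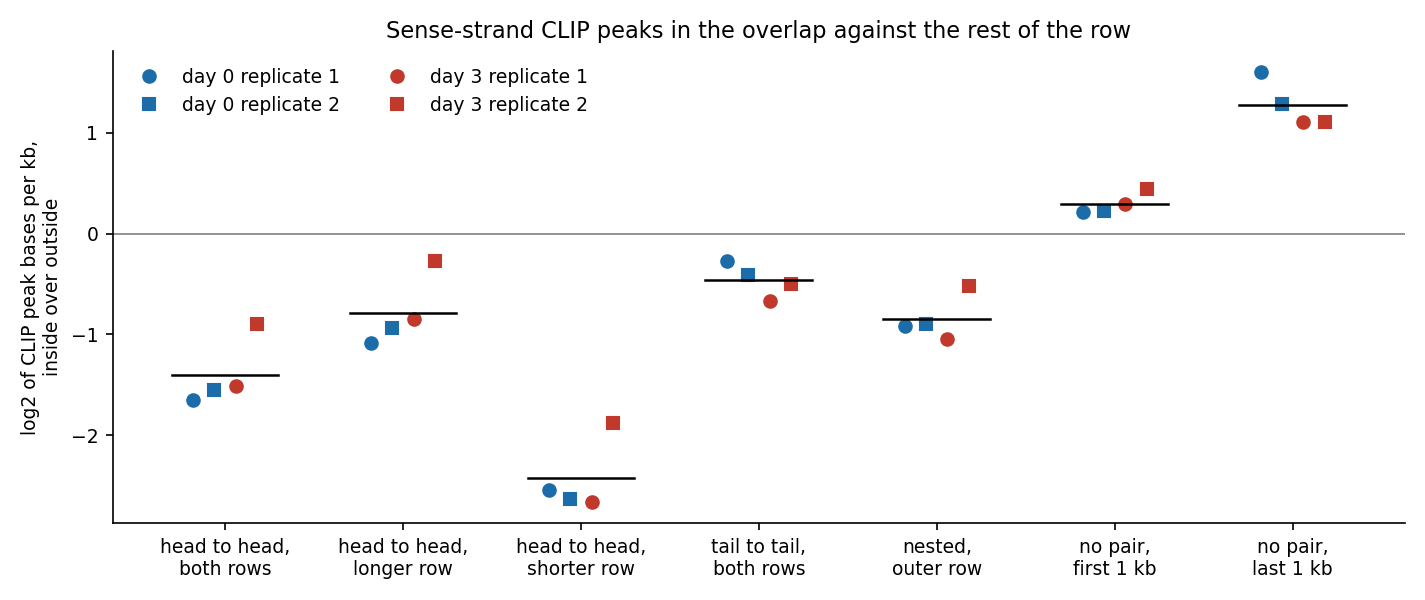
Log2 ratio of sense-strand CLIP peak bases per kb inside the overlap to those in the rest of the rows, pooled over rows. Each library is 1 point, with a line at the mean of 4. Shown are the arrangements of pairs and the first and last 1 kb of rows in no pair. All points of pairs lie below 0 and all points of rows in no pair lie above it.

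In nested pairs, pooled over all overlaps, the inner strand had the denser peaks. Inner rows had 5.05 and 8.98 peak bases per kb at day 0 and 5.32 and 7.16 at day 3, while outer rows had 2.27 and 3.77, then 2.25 and 4.19. The inner strand was higher in each library. Counted by pair, the inner strand alone was bound in 57 overlaps at day 0 and the outer alone in 36, and at day 3 in 68 and 55. For plus rows inside minus rows at day 3, the outer strand was bound alone in 26 and the inner in 24.

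Sense and antisense CLIP were compared for each row across the 4 libraries, with both days together, by limma with Benjamini-Hochberg adjustment at 0.05. Rows with a peak in at least 2 libraries on either strand were tested, which took in 2102 rows of pairs and left out 2236. More sense than antisense was called in 1418 rows of pairs (67.5%), against 76.9% of all 11368 rows tested. More antisense was called in 147 (6.99%), against 1.76% of all rows. Of these 147 rows, 118 had no sense base in any library and so entered the test through the antisense strand alone, which makes the count a description rather than support for a difference between strands. Of the 1418, 961 (67.8%) had no antisense base and entered the test through the sense strand alone. The count of rows with more sense is therefore a description as well. Rows in no pair gave 79.1% and 0.572%. Antisense peaks of a row in a pair can lie on the RNA of its partner, and 70.8% of the antisense peak bases of the 147 rows lay inside the overlap. In 103 of these rows all of them did, and in 116 the partner had the higher FPKM. Their median length was 2339 bp, and that of the rows called for more sense was 37863 bp. By place in the pair, more antisense was called in 55 inner rows (25.9% of those tested), 21 outer rows (3.46%), 62 head-to-head rows (5.63%) and 14 tail-to-tail rows (5.81%). The count rests on all 4 libraries: without any 1 of them, 71 (without day 0 replicate 1) to 91 (without day 3 replicate 2) rows were called, and 80 without day 0 replicate 2 and 87 without day 3 replicate 1.

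Where 1 strand has no peak, the size of the fitted difference and the order of rows by it depend on the pseudocount. With the pseudocount of 1, the row of a pair with the largest difference towards antisense was the minus row on chromosome 4, 145007868 to 145183345 (FPKM 11.9). It had 0 sense bases in any library and 3592 and 7921 antisense bases at day 0, then 1695 and 3390 at day 3. The log2 difference, sense less antisense, was -9.22 ± 0.33 (SE, limma, adjusted p = 0.00045). It was -12.54 with a pseudocount of 0.1 and -5.92 with one of 10. The row entered the test through its antisense strand alone, so the p-value describes it and is no support for a strand difference. Its partner, the plus row 145100662 to 145129091 (FPKM 16.8), lies inside it. The next was the plus row on chromosome 7, 150293003 to 150612955, around the minus row 150466506 to 150474568 (FPKM 10.4). It had 0 and 304 sense bases at day 0 and 0 and 86 at day 3, against 1301, 6265, 5556 and 3228 antisense bases, a difference of -6.93 ± 1.18 (limma, adjusted p = 0.00821). The call was lost without day 0 replicate 1 (limma, adjusted p = 0.0885), day 0 replicate 2 (0.0582) or day 3 replicate 1 (0.0576), and kept without day 3 replicate 2 (0.0333). In both, the outer row is much longer than its partner and has few or no peaks of its own, while the opposite strand carries at least 1301 peak bases in each library.

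The row on chromosome 12, 20202341 to 20422295 (minus), followed, with 438 and 1119 antisense bases at day 0 and 292 and 739 at day 3. Its partner with the longest overlap was the plus row 20202339 to 20203356 (FPKM 27.4). That overlap is shorter than 1119 bp, so part of these bases lay outside it. The last of these 5 rows were inner rows of low level. The plus row on chromosome 15, 99649451 to 99665001 (FPKM 0.56), had 233, 901, 283 and 1033 antisense bases inside a minus row of FPKM 41.8, and the plus row on chromosome 13, 49703440 to 49719869 (FPKM 0.48), had 491, 613, 87 and 517 inside one of FPKM 26.2. These 3 rows had 0 sense bases in all 4 libraries.

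Towards sense, the largest difference with the pseudocount of 1 was in the plus row on chromosome 15, 61869142 to 62082685 (FPKM 16.5), with 5168 and 10053 sense bases at day 0, 7389 and 9906 at day 3 and no antisense base. The difference was 10.35 ± 0.31 (limma, adjusted p = 0.00045). With no antisense base, the row entered the test through its sense strand alone. Its p-value thus describes the row and is no support for a strand difference. The minus row inside this plus row, 62049096 to 62050958, had FPKM 0.6. The other 4 rows, on chromosomes 12 (41750524), 8 (75338498), 11 (33111795) and 1 (91350909), had differences of 9.62 to 9.77, and each is the much longer row of its pair. The order is not fixed: the chromosome 12 row exceeded the chromosome 15 row with a pseudocount of 10 (7.11 against 7.04), by number of peaks (7.14 against 7.01) and without day 3 replicate 2 (10.63 against 10.38).

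CTCF ChIP peaks were found in a minority of overlaps. A peak touched 412 of 2259 overlaps in day 0 replicate 1 (18.2%, exact Clopper-Pearson 95% interval 16.7 to 19.9), 756 in day 0 replicate 2 (33.5%) and 485 in the day 3 library (21.5%). In 335 overlaps (14.8%) all 3 libraries had a peak, and in 36.3% at least 1 had. All 3 had a peak in 12.7% of head-to-head, 15% of tail-to-tail and 18.1% and 16% of nested overlaps. Rows of 1 to 2 kb in no pair stood at 10.3%, and overlaps of that length at 14.6%.

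Per Mb, overlaps held 50.5, 91.8 and 56 ChIP peak midpoints (day 0 replicates 1 and 2, and day 3), against 21.4, 41.3 and 19.9 in the rest of the same rows. The ratio was 2.37, 2.22 and 2.81. The first 1000 bp of rows in no pair held 48.5, 97.3 and 54.9, so overlaps of all arrangements pooled stood at 1.04, 0.943 and 1.02 times that density. Tail-to-tail overlaps hold 3′ ends, so the pool is not a set of 5′ ends. By midpoints, the pooled overlaps were thus richer than the rest of their rows and about as rich as the starts of other rows. By peaks touching the window, those starts stood at 13.3%, 26.7% and 15.2% and at 11% for all 3 libraries, below the overlaps, whose windows are longer in the median (1176 against 1000 bp). Around the centre of head-to-head overlaps, the central 1 kb held 65.4, 139 and 76.8 midpoints per Mb, which is 1.98 to 2.29 times the density beyond 5 kb. In each library this was above the first 1000 bp of rows in no pair, without a test. The central 1 kb of nested overlaps held 63.5, 110 and 71.7, also above. That of tail-to-tail overlaps held 57.3, 74.9 and 66.1, which is below in day 0 replicate 2. Nested overlaps had ratios of 1.93, 1.86 and 2.30, and tail-to-tail overlaps 1.43, 1.07 and 1.72.

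**Figure D5:**
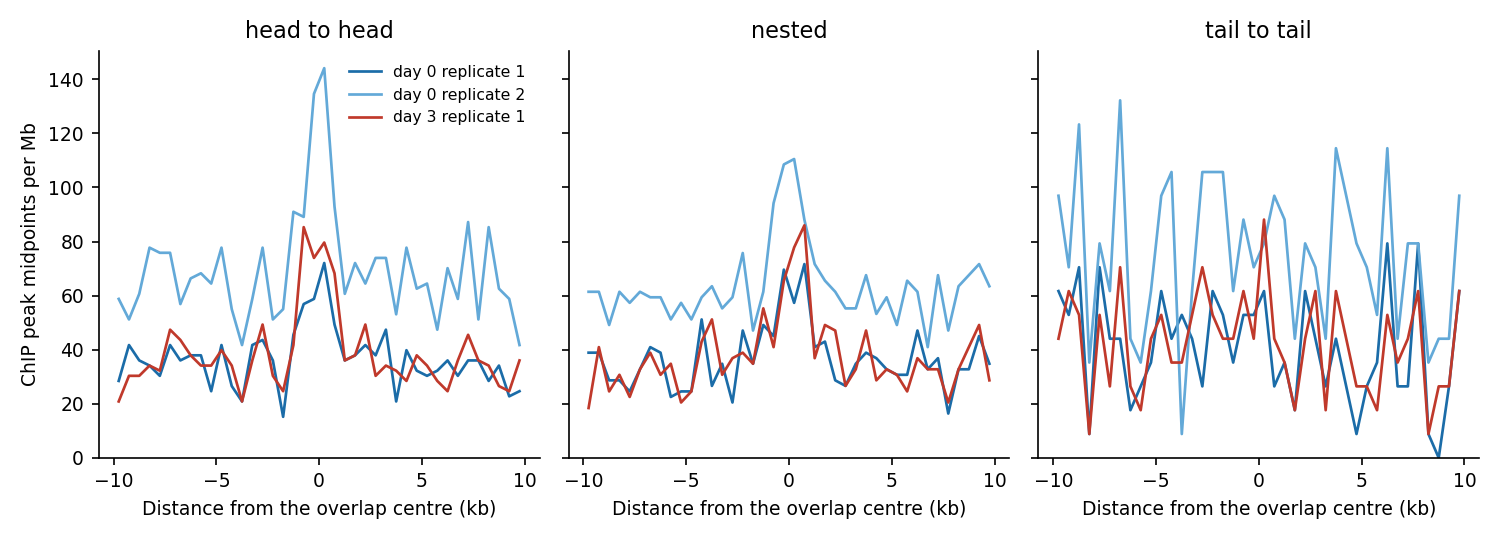
ChIP peak midpoints per Mb in bins of 500 bp up to 10 kb on each side of the overlap centre, 1 line per library, for head-to-head, nested and tail-to-tail pairs. Head-to-head and nested pairs have a central maximum in all 3 libraries; the 227 tail-to-tail pairs give uneven lines.

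CLIP peaks were about as frequent in overlaps with and without ChIP peaks. Of the 335 overlaps with a ChIP peak in all 3 libraries, 16.1% (exact Clopper-Pearson 95% interval 12.3 to 20.5) had a CLIP peak on either strand in day 0 replicate 1, and of the other 1924, 12.5% (11.1 to 14.1). In the other libraries the shares were 22.1% and 21.1%, 17.9% and 13.9%, and 26.9% and 24.3%. All 4 differences had the same sign and in all 4 the intervals overlapped. CLIP bases per kb, however, were lower in overlaps with ChIP in each library, from 2.85 against 3.38 in day 0 replicate 1 to 4.82 against 5.97 in day 0 replicate 2.

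The overlap with ChIP in all 3 libraries and the most CLIP on both strands was the chromosome 2 pair at 33071280, described above. The next was on chromosome 7, where the plus row 135136140 to 135137355 (FPKM 6.97) lay in the minus row 135135617 to 135137381 (FPKM 7.07). It had 97, 132, 0 and 100 plus-strand bases and minus-strand bases in day 3 replicate 2 alone (150). The nested pair on chromosome 3, minus row 40689819 to 40698045 in plus row 40650697 to 40740593, had 73, 41, 0 and 0 plus-strand and 0, 122, 0 and 63 minus-strand bases. The other 2, on chromosomes 4 (123343124) and 7 (120402640), had peaks on both strands in 2 libraries and in 1 library. None of these pairs, the first included, had peaks on both strands in all libraries.

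The longest overlaps differed in which strand carried CLIP peaks. The longest, 144376 bp on chromosome 3, is the plus row 84618194 to 84762569 (FPKM 26.9) inside the minus row 84300015 to 85691551 (FPKM 7.88). Its plus strand had 1538 and 2184 peak bases at day 0 and 1324 and 2291 at day 3, and its minus strand had 58 in day 0 replicate 2 and 0 in the others. Peaks were thus on the inner strand in all 4 libraries. On chromosome 2, the tail-to-tail pair of plus row 126533064 to 126585033 (FPKM 13.1) and minus row 126534832 to 126609174 (FPKM 24.97) had 642, 865, 344 and 688 plus-strand and 100, 0, 0 and 65 minus-strand bases, so the plus strand had more peak bases in each library, while it was the less abundant strand at day 0 alone. FPKM of that pair was 26.6 and 6.92 at day 3, with both day 0 rows wholly covered by their day 3 rows.

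The overlap of 59383 bp on chromosome 17, 71601514 to 71660896, had no CLIP base on either strand in any library, at FPKM 10.9 (plus) and 6.83 (minus), and held 2, 3 and 3 ChIP peaks. The overlap of 48454 bp on chromosome 2, with rows of FPKM 0.25 and 0.12, had 80 minus-strand bases in 1 library. In the overlap of 37059 bp on chromosome 2, 32270010 to 32307068, the inner minus row (FPKM 21.1) had 132, 134, 73 and 199 bases and the plus strand 0 in every library.

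On X, 5 pairs with the longest overlaps ran from 2083 to 8015 bp. The plus row 135868222 to 135872708 (FPKM 76.4) inside the minus row 135809740 to 135892277 (FPKM 3.26) had 489 and 403 plus-strand bases at day 0 and 430 and 418 at day 3. The minus strand had 11 in day 0 replicate 1 and 0 in the rest, and FPKM was 38.6 and 2.93 at day 3. The plus row 20447125 to 20451859 (FPKM 16.2), inside the minus row 20439296 to 20498471 (FPKM 8.69), had 234 and 176 bases at day 0 and 0 in both day 3 libraries. Its ChIP peaks were in both day 0 libraries and not in that of day 3, and FPKM was 8.28 at day 3. The plus row 7646048 to 7649914 (FPKM 4.85) in the minus row 7638561 to 7651384 (FPKM 3.82) had 86, 40, 43 and 147 plus-strand and 33, 113, 0 and 199 minus-strand bases. At day 3 the plus row was not listed and the minus row had FPKM 32.7. The pair at 166428956 to 166436970 has a row past FPKM 10000, and that at 20938066 had no CLIP base.

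CLIP was compared between days row by row with limma and Benjamini-Hochberg adjustment. Of 12054 rows with a sense peak in at least 2 libraries, 1784 were rows of pairs. None was called at an adjusted p of 0.05 (0 of 1784; over all rows 0% called, smallest adjusted p = 0.211). At an unadjusted p under 0.05 there were 106 rows of pairs (5.94%) and 1027 of all rows (8.52%). With 2 libraries a day the test had little reach. In simulated data with normal noise, 200 of 12054 rows were changed. A change of 3 on the log2 scale was recovered in 0% of these and one of 8 in 50.5%. Recovery with another number of changed rows was not simulated for this comparison. With a pseudocount of 0.1 in place of 1, 32 of the 1784 rows of pairs were called, 10 higher and 22 lower at day 3. Among all 12054 rows, 156 were then called higher and 239 lower.

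By day 3, 88.3% of rows of pairs were still listed, near the 86.3% of rows in no pair. Within each class of length, rows of pairs were listed more often. At 1 to 2 kb the shares were 82.5% and 71.5%, at 2 to 10 kb 86.7% and 82.3%, and from 10 kb up 95.9% and 91.3%. A day 3 row on the same strand overlapped both rows of 1786 pairs (79.1%), the plus row alone of 220, the minus row alone of 213 and neither row of 40. Such an overlap could be small. When the day 3 row had to cover at least 50% of the day 0 row, both rows were listed in 57.5% of pairs. The matched rows still made a pair by the same rule in 862 cases (38.2%), 40.9% of head-to-head and 34.8% of tail-to-tail pairs. The rule applied to the day 3 list gave 1338 pairs, 645 of them head to head (48.2%), and 875 (65.4%) shared at least 500 bp of overlap with a day 0 pair. The listing of a row depends on the depth of 1 RNA-seq library per day, which is unknown, so no test was possible.

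Rows of pairs were 2-fold higher at day 3 about as often as rows in no pair, and 2-fold lower less often, without a test. Changes are log2 of day 3 over day 0 FPKM with a pseudocount of 1, less the median of 0.16 over the 15705 rows listed at both days. At least 2-fold higher were 583 of 3831 rows of pairs (15.2%), against 15.4% of all rows, and at least 2-fold lower 471 (12.3%), against 16.4%. Of the 11874 rows in no pair, 15.4% were higher and 17.7% lower. The median change before centring was 0.30 in rows of pairs and 0.11 in the others.

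Changes of the 2 strands of a pair were weakly related. Spearman's rho of their changes was 0.101 over the 1786 pairs, which share both libraries. Both strands were past 2-fold in the same direction in 72 pairs (52 higher, 20 lower) and in opposite directions in 43. In 724 pairs 1 strand was past 2-fold and in 947 neither was. Of the 72 and 43 pairs, 33 and 18 had at least 50% of both rows covered at day 3, as had 5 of the 16 pairs with the largest changes named by rule. The other 11, with less of a row covered, are not described further.

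Among these 5 was a head-to-head pair on chromosome 2, plus row 153474907 to 153513466 and minus row 153474426 to 153476078. Its plus row had FPKM 4.60 at day 0 and 31.5 at day 3, and its minus row 3.54 and 0.26, centred log2 changes of 2.37 and -2.01. It had no ChIP peak, and CLIP in the overlap was 17 bases in 1 library. On chromosome 8, the plus row 85689133 to 85796838 had 114 and then 26.6, and the minus row 85688980 to 85690390 had 3.61 and then 20.4, changes of -2.22 and 2.05. The first pair had strands of similar level at day 0 and far apart at day 3, and the second the reverse.

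Both strands were lower at day 3 in the head-to-head pair on chromosome 16, plus row 35541231 to 35628397 (FPKM 60.8 and 9.65) and minus row 35541151 to 35542362 (19.5 and 3.50), with changes of -2.70 and -2.35. Its overlap had a ChIP peak in all 3 libraries and no CLIP base. Both were higher in the pair on chromosome 3, plus row 96531504 to 96595078 (14.0 and 75.8) and minus row 96515401 to 96532078 (2.66 and 2591). The fifth, on chromosome 1 at 138027681, had a plus row just below the FPKM limit at day 0 (9969), with 3.71 at day 3, and its minus row had 2.66 and 0.21. With 1 library a day, none of these changes has a replicate check.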

How the data were processed

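Lists were used as deposited on chromosomes 1 to 19 and X of build mm9. The tools, named without role or order per the submitters' processing notes, were Cufflinks 2.1.1, TopHat2 2.0.8, Novoalign 3.00.03, cutadapt 1.0, Trim Galore 0.3.3, bedtools 2.17.0 and SAMtools 0.1.18. No peak caller is named in the sources used here. In the deposited RNA-seq lists, the value of a row was read as FPKM, the unit of Cufflinks, which the files do not state. Rows pooling several transcripts hold 1 value. FPKM of 10000 or more, in 82 pairs, was not read as a level of a named row. Such rows stayed in the medians, the counts by fold or by higher FPKM, the correlations and the day 3 changes. Each peak in the deposited lists has a score, which is the authors' own value and served only to rank peaks within a list. Allele-specific lists were not used.

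The pairs and lists were chosen with earlier results of these data known. Head to head, tail to tail and nested arrangements follow from strand and position. Day 3 rows were matched by the largest same-strand overlap. CLIP peak bases per row, scaled to the library's peak bases per Mb, with a pseudocount of 1, were tested on the log2 scale with limma 3.58.1 (R 4.3.3) over all rows with a peak in at least 2 libraries; simulated data with 75% of rows different by 4 on the log2 scale between strands gave 91.2% recovered, and with a few rows different by 3 gave 0%. Intervals are exact Clopper-Pearson at 95% and cover counting error only. Pairs named are those with the highest FPKM of the weaker strand (6), the most CLIP on both strands (8), the longest overlaps overall (5) and on X (5), the largest day 3 changes (4 per direction), the most CLIP with ChIP (5), the largest strand differences (5 per direction) and those at the limits of the rule, with each row used in 1 pair per list; the other pairs of the list of opposite and shared changes had under 50% of a row covered at day 3.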

Additional observations from a re-analysis of the deposited data

How the results depend on the processing

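The count of rows of pairs called between days was 0 under all alternatives run, each library left out in turn included, except a pseudocount of 0.1, which gave 32. That setting called 156 rows higher and 239 lower among all 12054 rows. Rows of pairs with more sense CLIP ranged from 1134 to 1177 without single libraries and stayed within 1.5 times of 1418 under the alternatives run. Rows with more antisense CLIP, 147, came to 84 with a pseudocount of 10, 58 with a peak required in all 4 libraries, 75 with peaks scoring at or above the median of their list, and 71 to 91 without single libraries. With the replicate block the counts were 0, 1452 and 168. Deviations from the day mean correlated weakly between same-numbered libraries of the 2 days. The coefficient was 0.031 for sense CLIP and 0.022 for the sense less antisense difference. The head-to-head ratio of -1.40 became -0.96 with overlaps of at least 2000 bp, -0.79 for longer rows, -2.43 for shorter rows and -0.90 for longer rows of at least 10000 bp, and ranged from -1.57 to -1.32 without single libraries. The tail-to-tail ratio was -0.69 for shorter rows and -0.53 to -0.39 without single libraries. The nested ratio was -1.19 with FPKM of at least 1 on both strands and -0.96 to -0.78 without single libraries. No ratio changed sign. Overlaps with a ChIP peak in every library used, 14.8%, came to 6.86% by peak midpoint, 9.25% with peaks scoring at or above the median, 21.9% for overlaps of at least 2000 bp, and 15.5% to 19.7% without single libraries. Pairs with both rows listed at day 3 were 82.4% with FPKM of at least 1 and 57.5% with a 50% match. That match gave 34 pairs changed the same way and 18 changed oppositely, and a pseudocount of 0.1 gave 66 changed oppositely. Of the 10 rows named for strand, 3 of 120 values under the alternatives were no longer called, all 3 for the chromosome 7 row at 150293003 without single libraries, and none changed sign. Peak lists carry no read depth, which limits all statements on rows without a peak.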
